A study of Mus musculus with 20 samples.

Results

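Knee joints of mice that had received STING-MSC were compared directly with knee joints that had received TLR3-MSC, to describe how the 2 nucleic acid sensing agonists differed in their later effect on the joint. STING-MSC and TLR3-MSC are mesenchymal stromal cells (MSC) that were exposed to an agonist of the STING or of the TLR3 pathway before injection. The 10 joints (5 STING-MSC and 5 TLR3-MSC, 1 joint per mouse) were chosen by their labels from the 20 joints of the study, and all 14793 genes of the deposited table were tested. All mice were male C57BL/6Nci mice, 12 weeks old, with surgical destabilization of the medial meniscus (DMM) of the right knee, an instability model of post-traumatic osteoarthritis, and 10 mice were assigned to each group, of which 5 gave joint RNA. The cells came from adipose tissue, were drawn from 1 shared pool of donors and were injected into the joint in weeks 3 and 5 after surgery at 250000 cells per injection. The agonist of TLR3-MSC was polyinosinic-polycytidylic acid (pIC) and that of STING-MSC was 2′3′-cGAMP, each at 10 µg/mL and for 2 h. The other 10 joints, which received needle insertion alone (control) or non-activated MSC, shared the surgery and are used here as levels side by side. No sham-operated joints were included, and the study describes tissue collection at 8 weeks in its methods and a day after injection in its results, so the interval between injection and RNA is uncertain.

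TLR3 is an endosomal receptor for double-stranded RNA, for which pIC is a synthetic substitute, and it signals through the adaptor TRIF (Ticam1). STING (Sting1) is an adaptor in the endoplasmic reticulum that binds cGAMP, the cyclic dinucleotide that the DNA sensor cGAS makes. Both routes converge on the kinase TBK1, the transcription factor IRF3 and NF-kB, and they are best known for type I interferon and the interferon-stimulated genes. In the joint, synovial fibroblasts, chondrocytes and tendon cells make the collagens, proteoglycans and hyaluronan of the extracellular matrix, which proteases of the MMP and ADAMTS families degrade.

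Each knee was taken as 1 block of cartilage, synovium, capsule and subchondral bone and sequenced as poly(A) RNA, so that fewer cells of a type and less RNA per cell cannot be told apart in any value given here. The joints had 28385967 to 45339875 reads on the listed genes after TLR3-MSC and 27955496 to 35561322 after STING-MSC. The defining markers of the labelled tissue were present in all 10 joints: the cartilage collagen Col2a1 had normalized counts of 9321 to 42253 after STING-MSC and 3004 to 80309.8 after TLR3-MSC, and the synovial lubricant gene Prg4 had 40339 to 196213 and 200432 to 397958. Genes of bone marrow, blood, skeletal muscle and, in some joints, skin were present as well. STING-MSC replicate 5 stood apart from the other 9 joints, with 97 genes listed at 0 against 25 to 27 in the other STING-MSC joints and 3 to 18 in the TLR3-MSC joints, and 47 of its 97 genes were at 0 in none of the other 19 joints. On the first principal component (36.6% of the variance) it lay at -64.0, the other STING-MSC joints from -20.1 to 16.8 and the TLR3-MSC joints from -25.2 to 38.5. Values without this joint, or the range without single joints, are given beside many of the results that it moved, but not beside all.

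In STING-MSC joints compared with TLR3-MSC joints, most genes of the extracellular matrix, joint fibroblasts and tendon had log2 fold changes below 0, with medians of -0.64 to -0.26 in the matrix lists, -0.59 for fibroblasts and -0.78 for tendon, but 10 of 176 matrix genes, 0 of 20 fibroblast genes and 1 of 12 tendon genes reached an unadjusted p of 0.05. Epidermal keratin genes had a median of -1.92 and were high in 2 TLR3-MSC joints. The lists of TLR3, cGAS-STING, interferon and type I interferon-stimulated genes had medians of 0.04 to 0.05. Single members differed more, such as Enpp1 at -1.27. The threshold was a fold change of at least 2 with an unadjusted limma p up to 0.05. Past it, 9 genes were higher (0.0608% of the genes tested) and 83 were lower (0.561%) in STING-MSC joints. At the unadjusted p alone, 116 genes were higher (0.784%) and 264 lower (1.78%), together 2.57% of the genes, which is less than the 5% that this p allows without any difference. No gene reached an FDR of 0.05 in limma or edgeR, and the smallest limma FDR was 0.890, so that FDR is not repeated for each gene. DESeq2 on the recovered reads called 2 genes, Flg2 (FDR = 2.84e-12) and Lce1m (FDR = 3.22e-07), epidermal genes that were listed at 0 in all 5 STING-MSC joints and reached 679 and 637 in TLR3-MSC replicate 4.

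**Figure D1:**
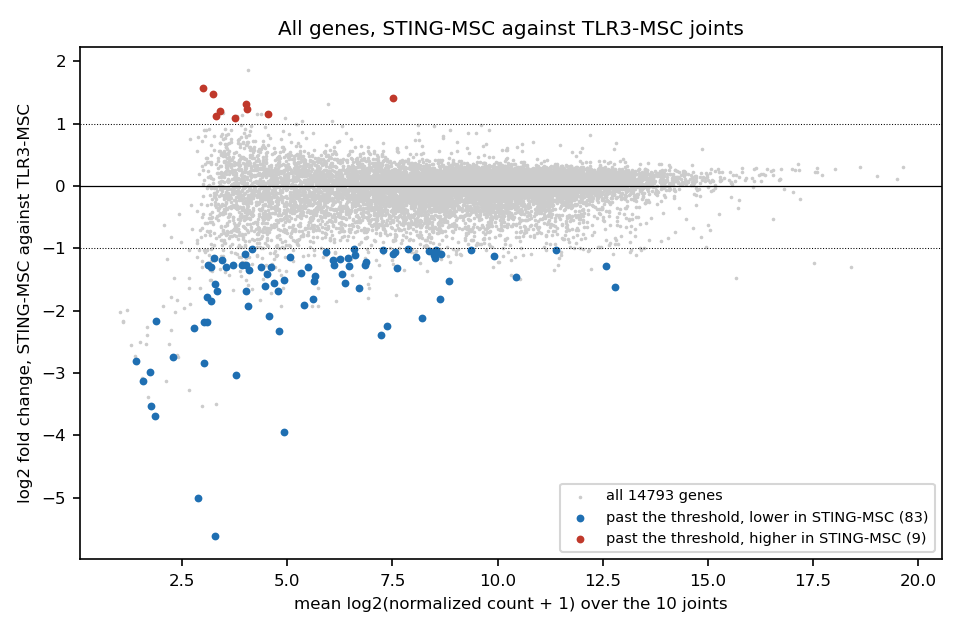
Log2 fold change of STING-MSC against TLR3-MSC joints for all 14793 genes (vertical axis) against the mean log2(normalized count + 1) over the 10 joints (horizontal axis), with dotted lines at a fold change of 2. The fitted values of the 83 lower genes (blue), with genes at 0 in 1 group included, reach from -1.01 to -5.61, the 9 higher genes (red) stay between 1.10 and 1.57, and most of both sets lie at low levels.

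The genes past the threshold had few reads. The mean normalized count over the 10 joints had a median of 70.9 among the 83 lower genes and 14.3 among the 9 higher genes, against 853 among all genes. The 2 replicates numbered 5, which are joints of different mice, carried much of the lower set. STING-MSC replicate 5 was the lowest STING-MSC joint in 62 of the 83 genes and TLR3-MSC replicate 5 the highest TLR3-MSC joint in 46. Without STING-MSC replicate 5, 20 of these 83 genes stayed past the threshold, and without TLR3-MSC replicate 5, 25 did. The count of lower genes over all genes was 24 and 34 without these joints, 55 without TLR3-MSC replicate 2, 171 without TLR3-MSC replicate 1 and 126 without TLR3-MSC replicate 4. The count of higher genes was 18 without TLR3-MSC replicate 1 and also without TLR3-MSC replicate 3. With quantile normalization, 26 genes were higher and 56 lower, so the share of lower genes among those past the threshold was 68.3% instead of 90.2%.

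A count that needs no model of the spread, taken from the same 10 joints, gave a similar picture of direction. All 5 STING-MSC joints lay above all 5 TLR3-MSC joints for 34 genes (0.23% of the genes tested) and below them for 165 genes (1.12%). Without any difference between the groups, such separation in 1 direction or the other has a probability of 0.00794 per gene. The median log2 fold change was 0.34 for the 34 genes and -0.53 for the 165 genes. Only 17 of the 165 lower genes were also past the threshold (10.3% of the 165 and 20.5% of the 83). They included Ccn5 and Htra1 of the matrix and Krt77, Crct1 and Lce1a1 of the epidermis. Crct1 and Lce1a1 were at 0 in all 5 STING-MSC joints, and only 2 TLR3-MSC joints were above a floor of 3 reads. The separation of these 2 genes thus stood on few reads. Among the 34 higher genes, Syn3, Smim41 and Fcrl5 were also past the threshold (8.82% of the 34 and 33.3% of the 9).

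The gene with the smallest p, Syn3 (ENSMUSG00000059602, chromosome 10, 85890989 to 86334761, GRCm39), encodes synapsin III, a protein of synaptic vesicles. Syn3 had normalized counts of 27.5, 31.8, 26.1, 36.2 and 51.8 in STING-MSC replicates 1 to 5 and 11.8, 21.8, 20.1, 10.4 and 12.4 in TLR3-MSC replicates 1 to 5, the order in which values are given throughout. Every STING-MSC joint was above every TLR3-MSC joint, although all 10 values stood on few reads. The log2 fold change was 1.15 (standard error 0.29) and the exact permutation p was 0.00794, two-sided, the smallest that 5 against 5 joints can give. Serpina1b (chromosome 12, 103694415 to 103796633), which encodes an alpha-1-antitrypsin, a serine protease inhibitor of plasma, had the highest level of the 9 higher genes. Serpina1b had 483, 285, 350.4, 367 and 130.5 after STING-MSC and 163, 91.4, 68.4, 124 and 132 after TLR3-MSC. STING-MSC replicate 5 lay within the TLR3-MSC range and the other 4 above it, with a log2 fold change of 1.41 (standard error 0.41, exact permutation p = 0.0238).

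Of the other 7 higher genes, Fcrl5, an Fc receptor-like protein of B cells, had 14.4, 22.0, 18.8, 11.2 and 33.6 after STING-MSC and 10.1, 10.5, 4.02, 9.32 and 9.04 after TLR3-MSC. Smim41, a small membrane protein, had 15.7, 20.8, 28.2, 22.5 and 40.3 and 12.6, 12.9, 5.36, 14.5 and 6.78. Neither gene overlapped between the groups, and their log2 fold changes were 1.10 and 1.23 (exact permutation p = 0.00794 for both). Grm6, a metabotropic glutamate receptor, had 34.1, 14.7, 30.2, 32.5 and 18.2 against 5.06, 9.70, 9.38, 20.7 and 6.78, with the lowest STING-MSC joints below TLR3-MSC replicate 4 (1.32, exact permutation p = 0.0238). For Rgs8, a regulator of G-protein signalling, the log2 fold change was 1.12 (exact permutation p = 0.0397). Uts2b (a urotensin-related peptide, 1.57), Foxh1 (a transcription factor of nodal signalling, 1.47) and Slc6a18 (a neutral amino acid transporter, 1.21) overlapped between the groups, with exact permutation p of 0.0873, 0.0873 and 0.0635. On the recovered reads, Uts2b and Foxh1 did not reach an unadjusted p of 0.05 in edgeR (0.166 and 0.201) or in DESeq2 (0.134 and 0.165). Syn3, Serpina1b, Grm6, Fcrl5 and Smim41 kept an unadjusted limma p of at most 0.05 without each joint in turn, whereas Rgs8 lost it without STING-MSC replicate 3 or TLR3-MSC replicates 2 or 5, Uts2b without TLR3-MSC replicates 1 or 5, Foxh1 without STING-MSC replicate 1 or TLR3-MSC replicates 3 or 4 and Slc6a18 without STING-MSC replicates 1, 2, 4 or 5 or TLR3-MSC replicates 4 or 5.

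The 10 lower genes of smallest p included Gm2115, Kcna1, Syt17, Fzd10, Crct1, Gpr63, Adgrl3, Wnt7b and Snap91. Kcna1 (chromosome 6, 126617360 to 126623348), a voltage-gated potassium channel, had 3.93, 7.34, 7.30, 7.50 and 5.76 after STING-MSC and 13.5, 19.4, 13.4, 20.7 and 12.4 after TLR3-MSC. The 2 groups did not overlap, with a log2 fold change of -1.20 (standard error 0.35, exact permutation p = 0.00794). Syt17, a synaptotagmin, had 3.93, 3.67, 4.17, 7.50 and 0 against 6.74, 14.6, 24.1, 10.4 and 55.4 (-2.18, exact permutation p = 0.0159), and Snap91, a clathrin assembly protein of synapses, had 5.24, 26.9, 10.4, 19.99 and 3.84 against 24.4, 46.9, 41.6, 32.1 and 158 (-2.08, exact permutation p = 0.0159). The highest value of both lay in TLR3-MSC replicate 5, and Snap91 lost its call without that joint.

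Gm2115, a gene with no established role, had 6.56, 0, 1.04, 7.50 and 0.959 after STING-MSC and 32.0, 44.5, 9.38, 6.21 and 41.8 after TLR3-MSC, with a log2 fold change of -2.84 (exact permutation p = 0.0238). Gpr63, an orphan G-protein-coupled receptor, had 7.87, 13.5, 2.09, 12.5 and 0 against 20.2, 23.5, 14.7, 11.4 and 17.0 (-1.68, exact permutation p = 0.0238). Adgrl3, an adhesion receptor of the latrophilin family, had 10.5, 6.12, 1.04, 7.50 and 2.88 against 21.1, 7.28, 13.4, 7.25 and 19.2 (-1.26, exact permutation p = 0.0556) and lost its call without STING-MSC replicate 3. In these 3 genes, TLR3-MSC replicate 4 was the lowest of its group and lay within the STING-MSC range. Fzd10, Crct1 and Wnt7b are described with their gene groups.

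Across 41 gene lists, 21 medians lay below 0, and the median over all genes was 0.02. The lists with the lowest medians were the keratin, tendon, glycoprotein matrix, fibroblast and collagen processing lists, and those with the highest were the guanylate-binding GTPases and skeletal muscle. The median of 17 lists, none of them more than 0.17 from 0, changed sign without at least 1 joint, and in 5 lists with medians up to 0.04 from 0 the mean had the other sign (cGAS-STING -0.04, interferons -0.03, macrophages 0.06, CDK inhibition -0.14 and the clock -0.03). A list member is called here where its unadjusted limma p was at most 0.05, beside which 0.784% of all genes were higher and 1.78% lower.

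**Figure D2:**
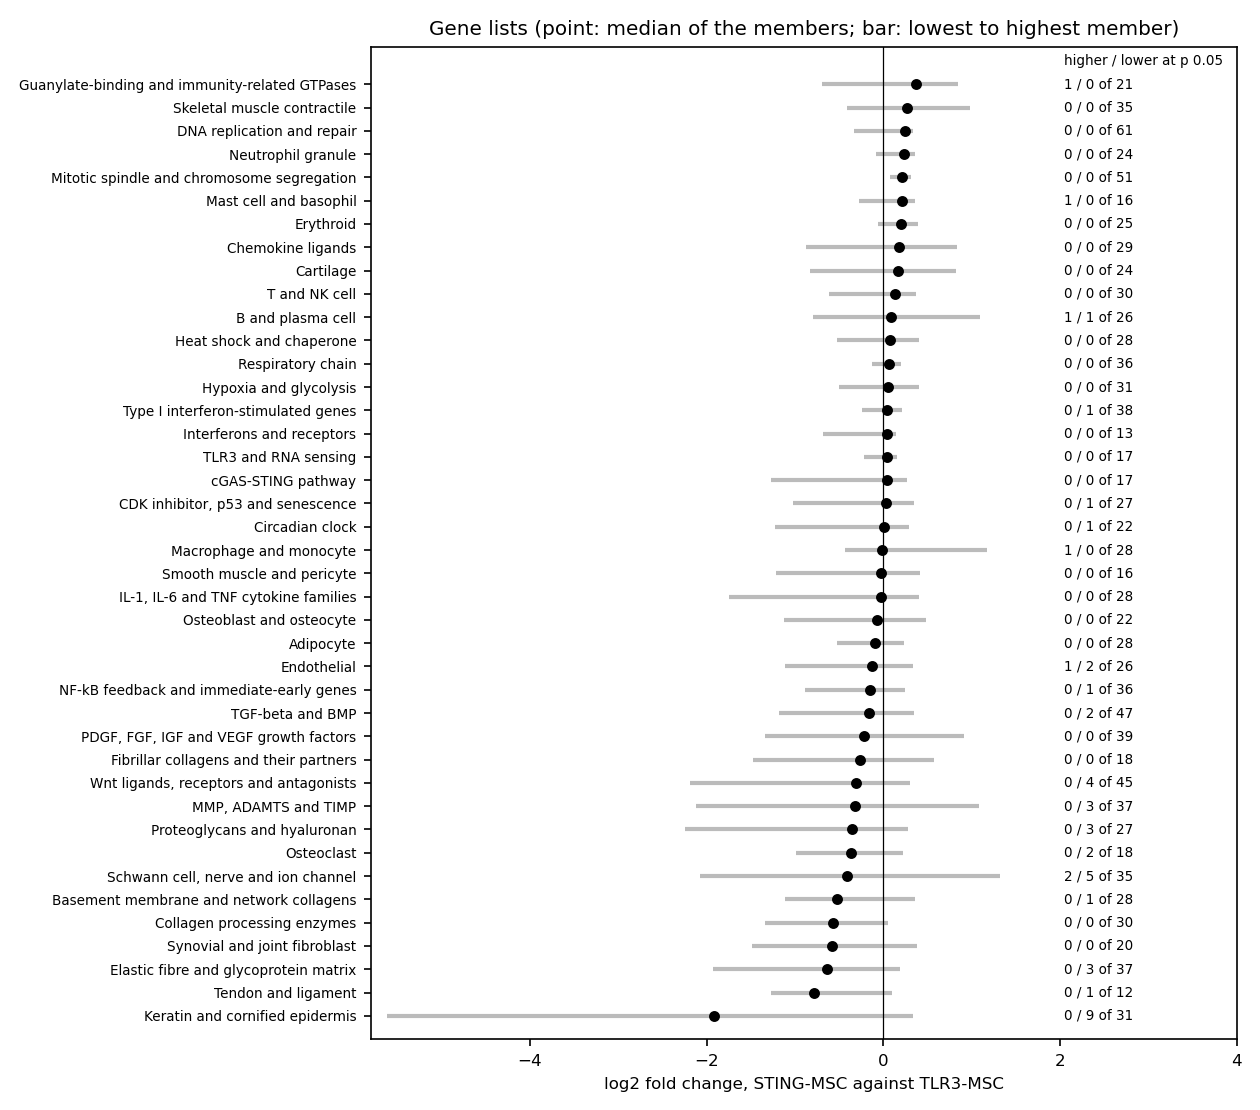
Median log2 fold change of STING-MSC against TLR3-MSC joints (points, horizontal axis) and the range from the lowest to the highest member (bars) for the 41 gene lists, ordered by median, with the members higher and lower called at the unadjusted p on the right. The keratin list lies lowest at -1.92, the matrix lists between -0.64 and -0.26, and the GTPase list highest at 0.37.

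No difference was detected in the joint for the receptors and adaptors that the agonists engage. Tlr3 had normalized counts of 138, 164, 227, 151 and 104 in STING-MSC joints and 188, 211, 153, 135 and 211 in TLR3-MSC joints, and Sting1 had 725, 749.8, 1192, 791 and 951 and 871, 834, 759, 807 and 962. The groups overlapped for both genes, with log2 fold changes of -0.22 and 0.04 (exact permutation p = 0.349 and 0.833). Ticam1, the adaptor of TLR3, differed by -0.04 on the log2 scale, and Cgas, the enzyme that makes cGAMP, by 0.27 (exact permutation p = 0.77 and 0.127). The transcription factors Irf3 (0.06) and Irf7 (0.03) and the interferon receptor subunit Ifnar1 (-0.08) had exact permutation p of 0.389, 0.833 and 0.341. Ifnb1, the gene of interferon beta, was not in the table.

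None of the 17 measured genes of TLR3 and RNA sensing, the 17 of the cGAS-STING pathway and the 13 of interferons and their receptors reached the unadjusted p in either direction in limma, and the median of each list was 0.04. The gene of smallest p in each list was Mavs, the mitochondrial adaptor of RNA sensing (log2 fold change 0.12), Enpp1, which hydrolyses extracellular cGAMP and ATP (-1.27), and Socs3, a feedback inhibitor of cytokine receptors (-0.69). Enpp1 had 2002, 2021, 1753, 2270.1 and 1119 after STING-MSC and 2843, 6313, 2725, 2136 and 13981 after TLR3-MSC, with only STING-MSC replicate 4 inside the TLR3-MSC range (exact permutation p = 0.0159). Control joints ranged from 2493 to 19221 for Enpp1 and MSC joints from 742 to 15312.

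Type I interferon-stimulated genes had a median of 0.05, with 0 of 38 members higher and 1 lower, and no member went past the fold threshold. The lower member was Ifi27, a mitochondrial interferon-induced protein, with 2584, 2644, 2403, 2393 and 1906 after STING-MSC and 2874, 2383, 3125, 2848 and 2861 after TLR3-MSC (log2 fold change -0.24, exact permutation p = 0.0556). The mean level of the list, as mean log2(normalized count + 1), was 9.43, 9.25, 9.83, 9.26 and 9.37 in STING-MSC replicates 1 to 5 and 9.79, 9.13, 9.40, 9.45 and 9.26 in TLR3-MSC replicates 1 to 5. STING-MSC replicate 3 and TLR3-MSC replicate 1 stood highest of their groups, the ranges overlapped, and the median was -0.07 without STING-MSC replicate 3. The call of Ifi27 was lost without STING-MSC replicate 5 or TLR3-MSC replicates 1, 3, 4 or 5.

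Guanylate-binding proteins and immunity-related GTPases, interferon-gamma inducible GTPases that attack the vacuoles of intracellular pathogens, had the highest median of all lists, 0.37, with 19 of 21 members above 0. This difference lay mostly in 1 joint. The mean level of the list was 7.79, 8.02, 9.48, 7.68 and 7.80 in STING-MSC replicates 1 to 5 and 8.14, 7.81, 7.65, 7.74 and 7.68 in TLR3-MSC replicates 1 to 5, so that STING-MSC replicate 3 stood alone. It was the highest of the 10 joints in 19 of 21 genes, and without it the median was 0.05. Control joints reached from 7.61 to 8.65 and MSC joints from 7.57 to 8.14. The member past the unadjusted p was Gm12185 (chromosome 11, 48795483 to 48883054), an immunity-related GTPase gene, with 57.7, 66.1, 146, 45.0 and 43.2 after STING-MSC and 39.6, 42.9, 41.6, 21.8 and 35.04 after TLR3-MSC, no overlap between the groups and a log2 fold change of 0.85 (standard error 0.36, exact permutation p = 0.00794). The call of Gm12185 was lost without STING-MSC replicate 3 and without TLR3-MSC replicate 4.

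Of the members not called, 3 were chosen after their values were seen. Gbp2, a guanylate-binding protein, had 374, 618, 3728, 456 and 389 after STING-MSC and 499, 516, 580.5, 515 and 660.1 after TLR3-MSC. Irgm2, an immunity-related GTPase, had 1006, 1375, 4113, 992 and 958 and 1298, 1016, 979, 951 and 949, and Igtp, another, had 1061, 1268, 3839.5, 1111 and 1243 and 1333, 832, 877, 1051 and 859. In all 3 genes STING-MSC replicate 3 was well above the other 9 joints, which overlapped. In the same joint, Cxcl10, an interferon-induced chemokine, was at 619 against 44.6 to 67.3 in the other STING-MSC joints and 46.9 to 162 in the TLR3-MSC joints. Reads of Tgtp1 and Tgtp2, which are near-identical copies, could have been split by the counting.

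The promoters of these genes are shown because the members moved together in 1 joint. Of the 21 genes, 11 were in the RefSeq promoter table (build GRCm38.p6, 250 bases before to 50 after the start, a different build from that of the gene positions above). The letters GAAANNGAAA, the core of the interferon-stimulated response element, were searched on both strands. They were found for 10 of the 11 genes, in 83.3% of their 12 promoters, against 3.44% of all 32851 promoters of this length. The interferon-stimulated genes of the type I list held them in 44.8% of 29 promoters. Some of the GTPase promoters share most of their sequence around the match, such as Gm12185 with Tgtp2 and Igtp with Irgm2. Their matches are therefore not independent of each other. A match describes letters only and does not show that a factor binds there. Capitals mark the match in the 4 promoters printed 5′ to 3′ on the strand of the gene, and in Gbp2 the match lies on the opposite strand.
Gm12185 (chr11:48927133-48927432, strand -): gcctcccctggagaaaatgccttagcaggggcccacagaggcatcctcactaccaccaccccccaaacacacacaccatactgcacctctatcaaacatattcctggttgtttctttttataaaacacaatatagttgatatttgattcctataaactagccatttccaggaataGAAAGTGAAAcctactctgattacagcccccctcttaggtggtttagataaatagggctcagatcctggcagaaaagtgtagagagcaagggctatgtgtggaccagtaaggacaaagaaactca
Irgm1 (chr11:48871371-48871670, strand -): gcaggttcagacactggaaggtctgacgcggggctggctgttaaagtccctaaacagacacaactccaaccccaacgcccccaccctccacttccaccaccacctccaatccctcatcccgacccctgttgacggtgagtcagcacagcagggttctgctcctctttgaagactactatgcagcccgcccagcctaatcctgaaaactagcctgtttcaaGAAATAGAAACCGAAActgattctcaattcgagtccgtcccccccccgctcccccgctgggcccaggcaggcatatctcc
Igtp (chr11:58199306-58199605, strand +): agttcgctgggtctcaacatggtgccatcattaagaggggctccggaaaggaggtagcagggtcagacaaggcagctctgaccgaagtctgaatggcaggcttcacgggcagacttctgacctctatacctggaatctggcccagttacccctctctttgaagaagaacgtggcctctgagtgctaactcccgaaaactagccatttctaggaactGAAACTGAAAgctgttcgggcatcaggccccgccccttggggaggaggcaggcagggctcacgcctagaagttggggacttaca
Gbp2 (chr3:142620413-142620712, strand +): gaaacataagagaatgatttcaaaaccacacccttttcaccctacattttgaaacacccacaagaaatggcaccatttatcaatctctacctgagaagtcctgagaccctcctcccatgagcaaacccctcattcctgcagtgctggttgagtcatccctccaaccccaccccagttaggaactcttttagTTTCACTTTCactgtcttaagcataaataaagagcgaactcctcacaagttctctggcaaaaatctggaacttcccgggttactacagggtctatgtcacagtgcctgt
The match began 75 bases before the start in Gm12185, 34 in Igtp and 59 in Gbp2, and Irgm1 held a pair of overlapping matches.

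**Figure D3:**
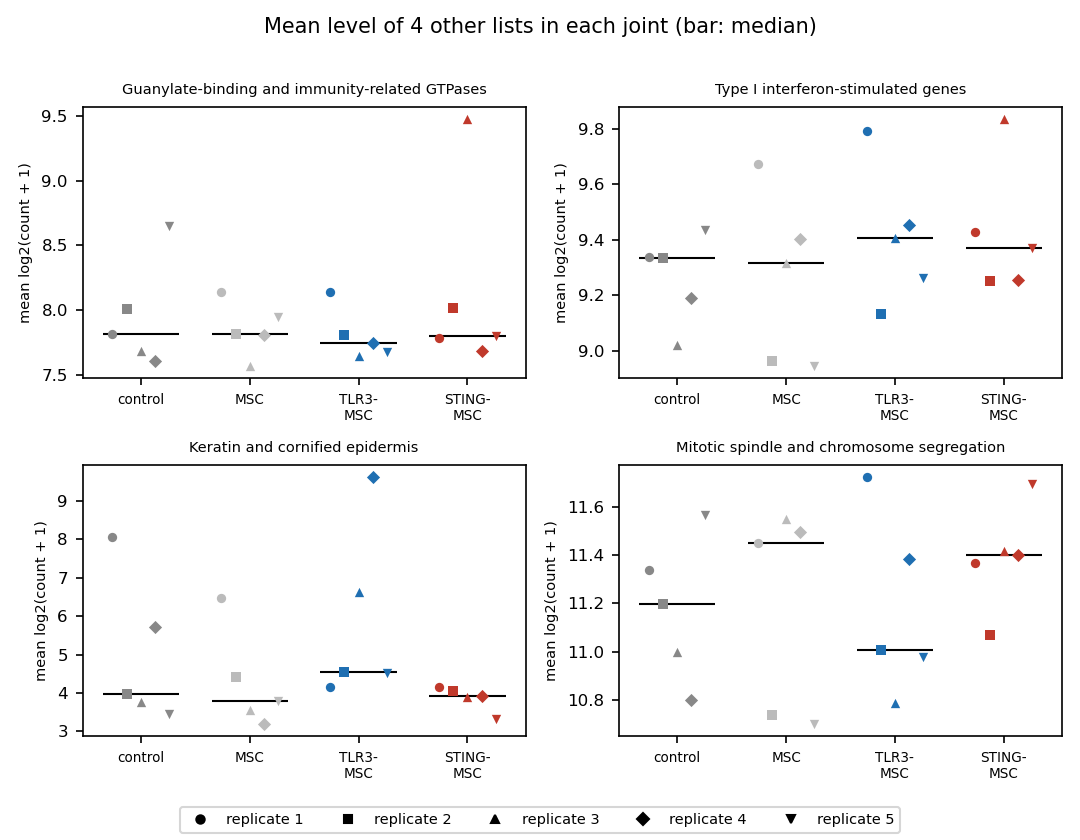
Mean log2(normalized count + 1) of 4 gene lists in each of the 20 joints (points, vertical axis), by group (horizontal axis), with a bar at the group median. STING-MSC replicate 3 stands alone in the GTPase list at 9.48, TLR3-MSC replicates 4 and 3 stand highest of their group in the keratin list at 9.62 and 6.63, and the interferon-stimulated and mitotic lists overlap between the groups.

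Chemokine ligands had a median of 0.17 (-0.07 without STING-MSC replicate 3 and 0.10 without TLR3-MSC replicate 1), with none of 29 members at the unadjusted p in limma in either direction. The member of smallest p was Ccl5, which attracts T cells and monocytes, with 176, 273, 414, 207 and 339.6 after STING-MSC and 269, 171, 126, 202 and 268 after TLR3-MSC (log2 fold change 0.43, exact permutation p = 0.159). The IL-1, IL-6 and TNF families had a median of -0.03, also with none of 28. Osmr, the oncostatin M receptor, came nearest, with 729, 733, 610, 702 and 359 against 805, 1664, 883, 646 and 2029.9 (-0.85, exact permutation p = 0.0397). Of 36 genes of NF-kB feedback and the immediate-early response, with a median of -0.16 (-0.23 without TLR3-MSC replicate 1 to -0.09 without STING-MSC replicate 4), the AP-1 member Jund was lower at 851, 989.5, 967, 1023 and 713 against 902, 1177, 1303, 1052 and 1679.5 (-0.41, exact permutation p = 0.0556), and its call was lost without STING-MSC replicates 1 or 5 or TLR3-MSC replicates 3 or 5.

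Most genes of the extracellular matrix had values below 0 and few were called. Of 176 genes in 6 matrix lists, 156 had a negative log2 fold change and 20 a positive one, with a median of -0.49, while no member was higher and 10 (7 of them past the fold threshold) were lower at the unadjusted p. As all these genes were read from the same 10 joints, the share of negative values is 1 observation and not 156. The median was -0.42 without STING-MSC replicate 5, -0.35 without TLR3-MSC replicate 5, and -0.25 (139 negative) without both, a choice made after the values were seen. It was -0.76 without TLR3-MSC replicates 3 and 4. Among all genes the median was 0.02. Within groups, the median SD of these 176 genes on the log2 scale was 0.40 in STING-MSC joints and 0.65 in TLR3-MSC joints, 0.76 in control joints and 0.94 in MSC joints. Without replicate 5, it was 0.23 in STING-MSC joints.

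**Figure D4:**
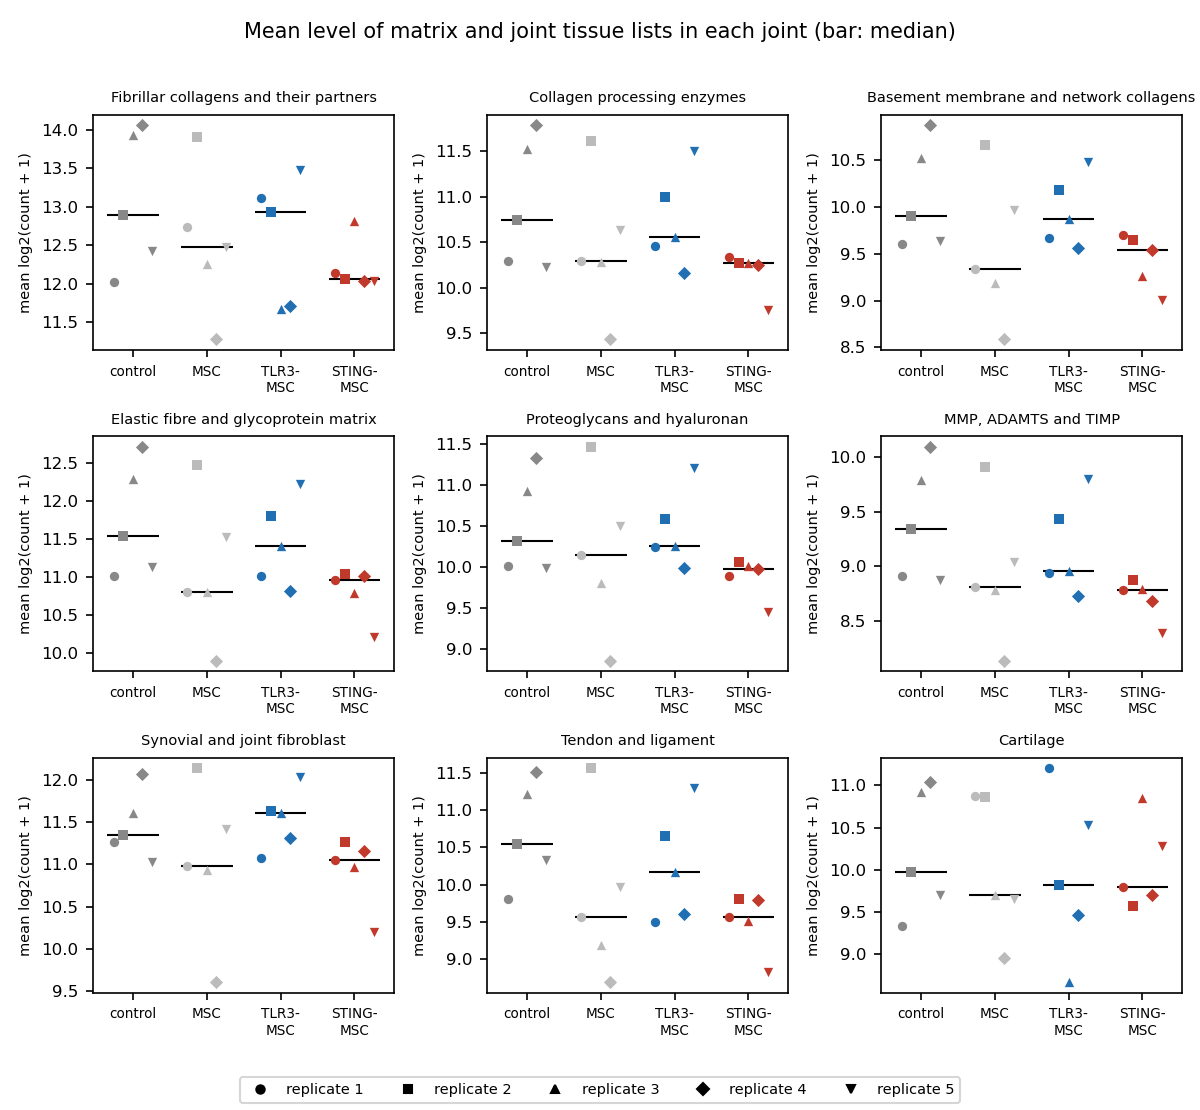
Mean log2(normalized count + 1) of 6 matrix lists and of the fibroblast, tendon and cartilage lists in each of the 20 joints (points, vertical axis), by group (horizontal axis), with a bar at the group median. STING-MSC replicates 1 to 4 lie close together in most panels, replicate 5 lies lowest in 7 of the 9, and TLR3-MSC replicates 5 and 2 lie highest of their group in the collagen processing and glycoprotein lists.

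Elastic fibre and glycoprotein matrix genes had a median of -0.64, with 35 of 37 members below 0, 0 higher and 3 lower at the unadjusted p. Without single joints the median was -0.81 without TLR3-MSC replicate 4 to -0.41 without TLR3-MSC replicate 5. The mean level of the list was 10.96, 11.03, 10.79, 11.01 and 10.21 in STING-MSC replicates 1 to 5 and 11.01, 11.80, 11.41, 10.82 and 12.23 in TLR3-MSC replicates 1 to 5. STING-MSC replicate 5 lay lowest, TLR3-MSC replicates 5 and 2 highest, and TLR3-MSC replicates 1 and 4 were among the STING-MSC joints. Ccn5 (ENSMUSG00000027656, chromosome 2, 163662781 to 163675067), a matricellular protein that restrains growth and fibrosis, had 1070, 946, 664, 1101 and 561 after STING-MSC and 1375, 4975, 1319, 1193 and 6011 after TLR3-MSC. Ccn2 (chromosome 10, 24471340 to 24474582), connective tissue growth factor, had 8979, 9572, 7775, 9419 and 3521 and 10156, 12518, 16681, 10362 and 16633. Neither gene overlapped between the groups, with log2 fold changes of -1.46 (standard error 0.60) and -0.81 (standard error 0.36) and an exact permutation p of 0.00794 for both. The gaps were narrow, and the limma calls of both genes were lost without STING-MSC replicate 5 (log2 fold change -1.31 and -0.54), without TLR3-MSC replicate 5 (-1.11 and -0.72) and without TLR3-MSC replicate 2. That of Ccn2 was also lost without STING-MSC replicate 3 and without TLR3-MSC replicate 3. The third called member, Fbln5, an elastic fibre protein, had 2086, 2291, 2325, 2759.9 and 1653 against 2551, 2459.8, 3609, 2784 and 2286 (-0.30), and it was named after its values were seen.

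Proteoglycan and hyaluronan genes had a median of -0.35, with 25 of 27 members below 0 and 3 called lower, among them Kera, which is described with tendon. The median was -0.25 without STING-MSC replicate 5. Lum (chromosome 10, 97400990 to 97408566), lumican, a small leucine-rich proteoglycan of collagen fibrils, had 4166, 4698, 4406, 5302 and 2020.5 after STING-MSC and 6298, 16772, 7141, 3989.6 and 25919 after TLR3-MSC, with a log2 fold change of -1.28 (standard error 0.58, exact permutation p = 0.0397). TLR3-MSC replicate 4 alone lay inside the STING-MSC range. Tnfaip6 (chromosome 2, 51928021 to 51946699), which encodes TSG-6, a hyaluronan-binding protein induced in inflammation and known as a product of MSC, had 113, 77.1, 128, 45.0 and 48.0 and 97.8, 1115, 162, 92.2 and 3712. Its log2 fold change of -2.25 (standard error 1.00, exact permutation p = 0.0556) rested on TLR3-MSC replicates 5 and 2, and it was -1.41 without TLR3-MSC replicate 5. The call of Lum was lost without STING-MSC replicates 1, 3 or 5 or TLR3-MSC replicates 2 or 5, and that of Tnfaip6 without STING-MSC replicates 2, 4 or 5 or TLR3-MSC replicates 2 or 5. For Tnfaip6, control joints had 122 to 913 and MSC joints 79.1 to 2555.

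Of 37 MMP, ADAMTS and TIMP genes, with a median of -0.33, 0 were higher and 3 lower. The median was -0.28 without STING-MSC replicate 5 and -0.23 without TLR3-MSC replicate 5. Adamts7, a protease that cleaves cartilage oligomeric matrix protein, had 232, 280.1, 229, 254 and 169 after STING-MSC and 303, 624, 439.7, 378 and 790 after TLR3-MSC, without overlap (log2 fold change -1.05, standard error 0.44, exact permutation p = 0.00794). Adamts16, a fibronectin-cleaving member of the family, had 222, 191, 111, 189.9 and 59.5 and 323, 1693, 289.6, 219 and 2478 (-2.12, exact permutation p = 0.0159), with TLR3-MSC replicate 4 just below the highest STING-MSC joint. Both calls were lost without either replicate 5 and without TLR3-MSC replicate 2, and that of Adamts16 also without STING-MSC replicate 3. Fap, fibroblast activation protein, a serine protease in the same list, was the third called member, with 2337, 1856, 2120, 2048 and 1234 against 3352, 7188, 2672, 1891 and 6672 (-1.03), and it was named after its values were seen. The collagenase gene Mmp13 and the aggrecanase gene Adamts5, given for their role in osteoarthritis after the values were seen, had log2 fold changes of -0.64 and -0.20 (exact permutation p = 0.119 and 0.381), and neither passed the test.

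The 3 collagen lists had medians nearer to 0 than that of the glycoproteins. Collagen processing enzymes had a median of -0.57, with 29 of 30 members below 0, and basement membrane and network collagens one of -0.52 (26 of 28), while fibrillar collagens and their partners were at -0.26 (13 of 18). Single joints moved the fibrillar median, from -0.64 without TLR3-MSC replicate 3 to -0.06 without TLR3-MSC replicate 5. The processing median was -0.42 without STING-MSC replicate 5, -0.39 without TLR3-MSC replicate 5 and -0.29 without both. The basement membrane median was -0.46, -0.40 and -0.34 in the same order. STING-MSC replicate 5 was the lowest of the 10 joints in 23 of 30 processing genes, and TLR3-MSC replicate 5 the highest in 25. Of these lists, only the basement membrane list had a member at the unadjusted p, Col4a6, with 17.0, 12.2, 8.34, 19.99 and 23.0 against 38.8, 14.6, 33.5, 61.1 and 19.2 (log2 fold change -0.91, exact permutation p = 0.0794), and its call was lost without STING-MSC replicates 2 or 3 or TLR3-MSC replicates 1, 3 or 4. In the fibrillar list, Col22a1, a collagen of tissue junctions, had 8387, 8773, 6655, 8143 and 2743 against 9183, 18527, 12047, 8122 and 23364 (-1.03, exact permutation p = 0.0317). Col1a1, the main collagen of bone and tendon and chosen after its values were seen, had 161581, 140031, 198377, 119177 and 100682 and 183162, 236622, 123872, 71006 and 288074, fully overlapping (-0.21, exact permutation p = 0.611). In the processing list, Fkbp14, a prolyl isomerase of the endoplasmic reticulum, had 607, 598, 541, 505 and 231 against 564, 995, 803, 568 and 1267 (-0.76, exact permutation p = 0.0635).

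The following 3 abundant genes, chosen after their values were seen because their groups did not overlap, were low in STING-MSC replicate 5. Fn1, fibronectin, had 294023, 288140, 205865, 310102 and 97844 in STING-MSC joints and 364601, 812163, 479087, 345742 and 1001120 in TLR3-MSC joints. Prg4, lubricin, had 167688, 179083, 121063, 196213 and 40339 and 200432, 359058, 285742, 259197 and 397958, and Htra1, a secreted serine protease of the matrix, had 4564, 5958, 3991, 6101 and 1630 and 6320.4, 18708, 9730, 7081 and 37207. STING-MSC replicate 5 was lowest and TLR3-MSC replicate 5 highest in all 3. Their log2 fold changes were -1.31, -1.24 and -1.63 (standard errors 0.71, 0.67 and 0.72), and only Htra1 passed the limma threshold. Control and MSC joints spanned all of these values, for Prg4 150984 to 542072 and 15886 to 431063.

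**Figure D5:**
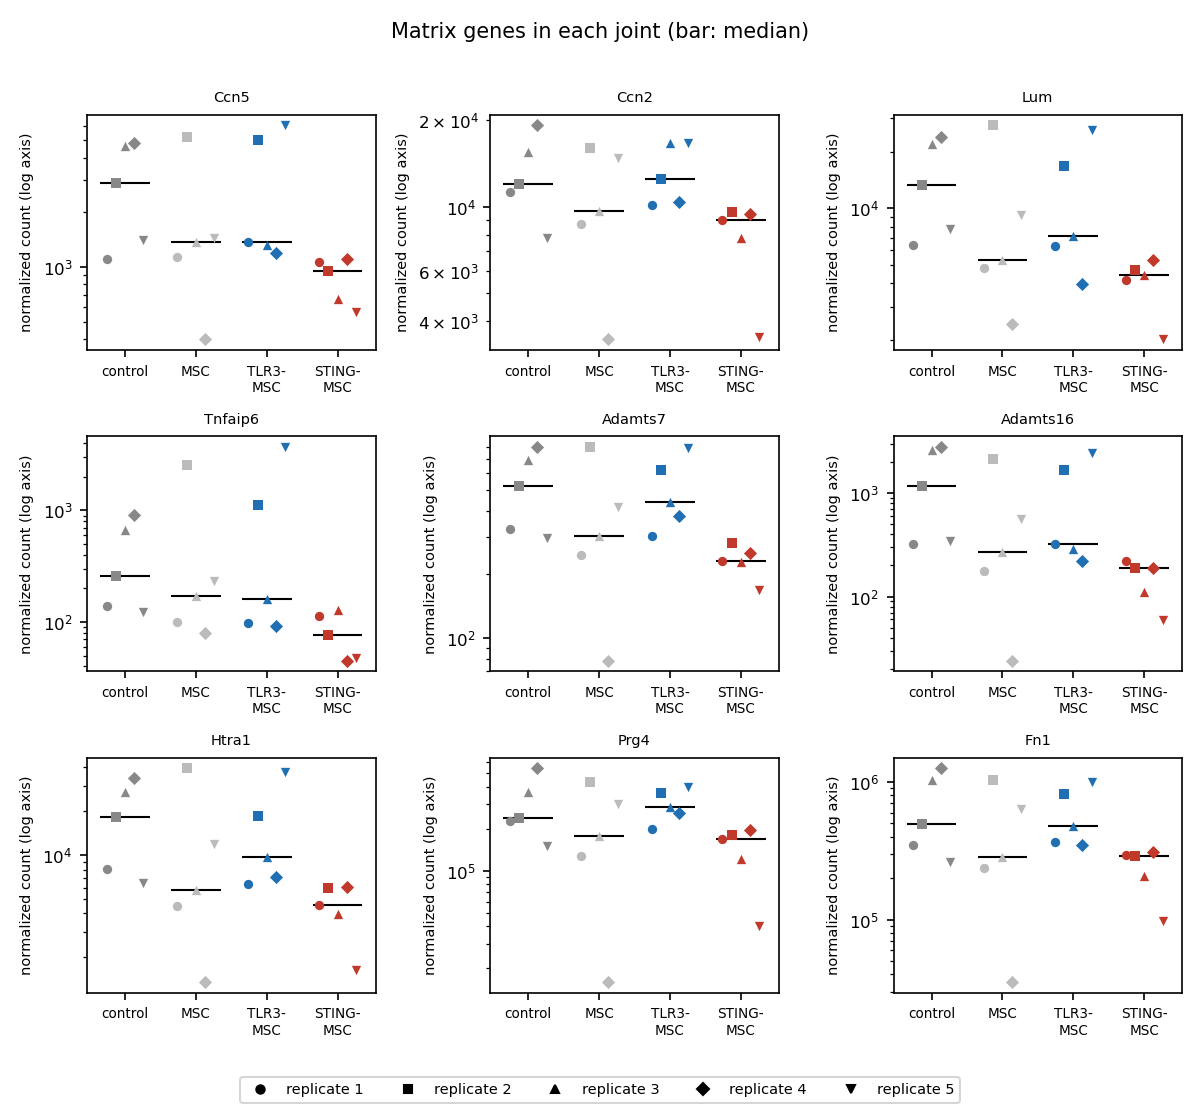
Normalized count (vertical axis, log scale) of 9 matrix genes in each of the 20 joints (points), by group (horizontal axis), with a bar at the group median. Ccn5, Ccn2, Adamts7, Htra1, Prg4 and Fn1 do not overlap between STING-MSC and TLR3-MSC joints, and control and MSC joints together cover the range of both groups for Ccn2, Adamts7, Adamts16, Htra1, Prg4 and Fn1.

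Joint fibroblast and tendon markers had medians in the range of the matrix lists or below. Synovial and joint fibroblast markers had a median of -0.59 (18 of 20 below 0, 0 lower at the unadjusted p), and mean levels of 10.19 to 11.26 in STING-MSC and 11.08 to 12.04 in TLR3-MSC joints. The median was -0.37 without STING-MSC replicate 5 and -0.30 without both replicates 5. Has1, a hyaluronan synthase of the synovial lining, had 1044, 1551, 983, 1119 and 295 against 1177, 3096, 2857, 1639.6 and 5352 (log2 fold change -1.49, exact permutation p = 0.0159). Tendon and ligament markers had a median of -0.78 (11 of 12 below 0), which was -0.60 and -0.48 without either replicate 5 and -0.33 without both. Kera, keratocan, a proteoglycan of tendon, was the member at the unadjusted p, with 28.8, 114, 77.2, 152 and 52.8 against 102, 135, 204, 205 and 309 (-1.27, exact permutation p = 0.0397). Its call was lost without STING-MSC replicates 1, 3 or 5 or TLR3-MSC replicates 3, 4 or 5. Whether the joints differed in the amount of synovium and tendon sampled was not tested.

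Cartilage and bone markers had no called member. For cartilage the median was 0.17 (-0.16 without TLR3-MSC replicate 3 to 0.45 without TLR3-MSC replicate 1), with none of 24 at the unadjusted p in limma, and their mean level ranged from 9.57 to 10.85 in STING-MSC and from 8.67 to 11.20 in TLR3-MSC joints. Cytl1, a secreted protein of chondrocytes, had 8793, 8414, 5938, 9518 and 2211 after STING-MSC and 5771, 2150.1, 4782, 2706 and 3338 after TLR3-MSC (log2 fold change 0.82, exact permutation p = 0.103), and the log2 fold change was 1.19 without STING-MSC replicate 5, where its unadjusted limma p fell under 0.05. Osteoblast and osteocyte markers had a median of -0.07 (0.12 without TLR3-MSC replicate 1) with none of 22 called, and Spp1, osteopontin, had 13319.5, 8826, 11638, 10622 and 11717 against 22021, 19352, 21915, 10154 and 38084 (-0.88, exact permutation p = 0.0397).

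Osteoclast markers had a median of -0.37, with 14 of 18 below 0 and 2 lower at the unadjusted p. Ctsk (chromosome 3, 95406567 to 95416674), cathepsin K, the collagen-degrading protease of osteoclasts, had 9215, 8517, 9604, 8936 and 9788 after STING-MSC and 19452, 15495, 24326, 8717 and 20413 after TLR3-MSC. Ckb, brain-type creatine kinase, which supplies ATP in osteoclasts, had 3553, 3728, 3872, 3616 and 3552 and 5794, 4449, 7755, 3938 and 6373. The STING-MSC joints lay in a narrow band for both genes, TLR3-MSC replicate 4 lay at or next to that band, and the other 4 TLR3-MSC joints were above it. The log2 fold changes were -0.86 (standard error 0.36, exact permutation p = 0.0397) and -0.59 (standard error 0.26, exact permutation p = 0.00794). Ctsk stayed called without STING-MSC replicate 5, but not without TLR3-MSC replicate 1, 3 or 5, and Ckb lost its call without STING-MSC replicates 1, 4 or 5 or TLR3-MSC replicates 1, 3 or 5. The median of the list was -0.23 without TLR3-MSC replicate 1 and -0.23 without TLR3-MSC replicate 3.

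Epidermal keratin and cornified envelope genes had the lowest median of all lists, -1.92, with 30 of 31 members below 0 and 9 lower past the fold threshold. Skin is not a tissue of the joint, and 2 TLR3-MSC joints carried most of these reads. The mean level of the list was 4.16, 4.04, 3.91, 3.93 and 3.33 in STING-MSC replicates 1 to 5 and 4.16, 4.55, 6.63, 9.62 and 4.52 in TLR3-MSC replicates 1 to 5. TLR3-MSC replicate 4 was the highest of the 10 joints in 29 of 31 genes. Krt5, a keratin of basal epidermis, had 2.62, 0, 0, 0 and 0 after STING-MSC and 7.59, 2.43, 119, 3587 and 9.04 after TLR3-MSC, with TLR3-MSC replicates 4 and 3 far above the rest (exact permutation p = 0.0159). Control joints spanned 0 to 889 and MSC joints 0 to 204 for Krt5, so some joints of these groups carried it as well. The call of Krt5 was lost without TLR3-MSC replicate 4, and that of Lce1a1, described next, without TLR3-MSC replicate 3 or 4.

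Crct1 and Lce1a1, genes of the cornified envelope, were at 0 in all 5 STING-MSC joints. Crct1 had 3.37, 3.23, 12.1, 198 and 3.39 and Lce1a1 0.843, 1.62, 18.8, 162 and 2.26 in TLR3-MSC replicates 1 to 5. Against a floor of 3 reads per library, they were lower by at least 1.38 and 0.97 on the log2(normalized count + 1) scale, and only TLR3-MSC replicates 3 and 4 were above the normalized count of that floor in the STING-MSC libraries. With the 3 list members that were at 0 in all STING-MSC joints placed at this bound, the median of the list was -1.66. Without TLR3-MSC replicate 4 it was -0.88, and without TLR3-MSC replicates 3 and 4 it was -0.39. The part of skin carried along at dissection in these values was not tested.

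Genes of nerve and ion channels had a median of -0.41, with 2 of 35 members called higher and 5 lower. The median was -0.18 without STING-MSC replicate 5 and -0.16 without TLR3-MSC replicate 5. The higher members were Syn3 and Grm6, described above, and Snap91 was lower, as were the potassium channel Kcnj15 (-1.65) and the synaptic vesicle protein Sv2c (-1.82), both named after their values were seen. Gfra1, a receptor of glial cell line-derived neurotrophic factor, had 202, 239, 351, 266 and 247 after STING-MSC and 370, 471, 346, 305 and 419 after TLR3-MSC, with a log2 fold change of -0.56 (standard error 0.16, exact permutation p = 0.0238). Only STING-MSC replicate 3 lay within the TLR3-MSC range, and the call held without each joint in turn.

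Of the endothelial genes, the 2 called lower were the apelin pair. Aplnr, the apelin receptor of endothelium, had 383, 409.8, 372, 317 and 319 after STING-MSC and 489, 657, 375, 425 and 809 after TLR3-MSC, and its ligand Apln had 59.0, 63.6, 69.9, 78.7 and 58.5 and 83.4, 296, 109.9, 74.6 and 293. Both were lower, with log2 fold changes of -0.56 (standard error 0.22) and -1.11 (standard error 0.51) and exact permutation p of 0.0238 and 0.0159. The highest values of both lay in TLR3-MSC replicates 5 and 2, and both calls were lost without either. That of Apln was also lost without STING-MSC replicates 1, 2, 3 or 5. Over the 26 endothelial genes the median was -0.13 (-0.23 without TLR3-MSC replicate 4 to -0.01 without TLR3-MSC replicate 5), with 1 called higher and 2 lower. The higher gene was Vwf, von Willebrand factor, with 6568, 7074, 5399.6, 6580.5 and 8039.7 against 7113, 5707, 3818, 5495 and 5605 (0.30), and it was named after its values were seen. Smooth muscle and pericyte genes had a median of -0.02 with none of 16 called, led by the adhesion molecule Mcam (-0.47, exact permutation p = 0.111).

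Blood and immune cell lists had medians between -0.02 and 0.23 and few called members. Neutrophil granule genes had a median of 0.23 and erythroid genes one of 0.20, with none of 24 and 25 called, and the erythroid median was 0.09 without TLR3-MSC replicate 3 to 0.39 without TLR3-MSC replicate 1. Their members of smallest p were Csf3r, the G-CSF receptor (0.26, exact permutation p = 0.135), and Tspo2, an erythroid membrane protein (0.31, exact permutation p = 0.246). Macrophage and monocyte genes had a median of -0.02, with 1 of 28 higher. This was Mertk, a receptor for the uptake of apoptotic cells, with 1141, 1157, 1066, 1258 and 1259 after STING-MSC and 1261, 959.8, 775, 1065 and 834 after TLR3-MSC (0.28, exact permutation p = 0.0873). The groups overlapped through TLR3-MSC replicate 1. Mast cell and basophil genes (median 0.21, 0.13 without STING-MSC replicate 5 to 0.33 without TLR3-MSC replicate 4, with 1 of 16 higher) were led by the transcription factor Gata2, with 931, 772, 969.8, 1054 and 1111 against 749, 822, 631, 968 and 809 (0.28, exact permutation p = 0.0794). The calls of Mertk and Gata2 did not hold up when single joints were left out, and were lost without STING-MSC replicates 1, 2, 4 or 5 or TLR3-MSC replicates 2, 3 or 5 for Mertk and without STING-MSC replicates 1, 3, 4 or 5 or TLR3-MSC replicates 1, 2, 3 or 5 for Gata2.

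In the B and plasma cell list (0.09, 26 genes), Fcrl5 was higher, as given above, and Ebf1, a transcription factor of B cell and also of adipocyte and stromal development, was lower. Ebf1 had 1484, 1686, 1926, 1753 and 1573 after STING-MSC and 2008, 2343, 2201, 2030 and 2433 after TLR3-MSC, without overlap (-0.39, standard error 0.18, exact permutation p = 0.00794). Its call was nevertheless lost without STING-MSC replicates 1, 2, 4 or 5 or TLR3-MSC replicates 2, 3 or 5. T and NK cell genes had a median of 0.13 (-0.04 without TLR3-MSC replicate 3 to 0.19 without STING-MSC replicate 1), with none of 30 called, and the transcription factor Tcf7 had the smallest p (-0.35, exact permutation p = 0.103). Adipocyte genes had a median of -0.09 with none of 28 called. Acaca, acetyl-CoA carboxylase, did not overlap between the groups, with 899.5, 1035, 874, 999.5 and 959 against 1191, 1105, 1598, 1123 and 1052 (-0.33, exact permutation p = 0.00794), although its limma p did not reach 0.05. Skeletal muscle genes had a median of 0.27 (0.09 without TLR3-MSC replicate 1 to 0.45 without TLR3-MSC replicate 3) and ranged in mean level from 13.30 to 14.53 in STING-MSC and from 12.59 to 14.67 in TLR3-MSC joints, with none of 35 called and Xirp1, a muscle repair protein, first by p (0.56, exact permutation p = 0.206).

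Growth factor pathways of the joint had medians below 0. Of 45 Wnt ligands, receptors and antagonists, with a median of -0.31, 0 were higher and 4 lower. The median was -0.25 without STING-MSC replicate 5 and -0.23 without TLR3-MSC replicate 5. Fzd10, a Wnt receptor, had 21.0, 17.1, 7.30, 38.7 and 4.80 after STING-MSC and 27.8, 40.4, 30.8, 62.1 and 70.1 after TLR3-MSC (-1.56, exact permutation p = 0.0238), and its call held without each joint in turn. The ligand Wnt7b, which is also made by epidermis, had 1.31, 0, 1.04, 10.0 and 14.4 and 6.74, 7.28, 28.2, 48.7 and 15.8 (-2.19, exact permutation p = 0.0635), and its call was lost without STING-MSC replicate 2. Of these 10 joints, Wnt7b was highest in the 2 with high keratin genes. Control replicates 1 to 5 had 54.0, 25.4, 31.4, 52.1 and 15.6 for Wnt7b. The mean level of the keratin list in them was 8.05, 3.97, 3.76, 5.73 and 3.44. The part of skin in the Wnt7b values was not tested. Fzd1, another receptor, had 778, 601, 656, 699.7 and 520 against 834, 2399, 875, 663 and 2658 (-0.96), and Rspo2, a Wnt agonist, 772, 884, 989.6, 1019.5 and 579 against 1304, 2114, 1602, 1197 and 1962 (-0.94), both named after their values were seen. Rspo2 did not overlap between the groups. Of 47 TGF-beta and BMP genes, with a median of -0.16 (-0.09 without STING-MSC replicate 5 and -0.27 without TLR3-MSC replicate 4), 2 were lower. Inhbb, the inhibin beta B subunit, had 239, 349.8, 267, 324 and 119.9 against 299, 1014, 394, 516 and 799 (-1.16, exact permutation p = 0.0238), and Tgfbr1, the type I receptor of TGF-beta, 2777, 2863, 2981, 2639 and 2706 against 3469.9, 3275, 3734, 2817 and 3538 (-0.26, exact permutation p = 0.0238). The call of Inhbb was lost without STING-MSC replicate 5 or TLR3-MSC replicates 2 or 5, and that of Tgfbr1 without STING-MSC replicates 1, 4 or 5 or TLR3-MSC replicates 1, 3 or 5. PDGF, FGF, IGF and VEGF genes had a median of -0.22 (-0.15 without STING-MSC replicate 5) with none of 39 called, led by Pdgfb (-0.18, exact permutation p = 0.111).

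Cell cycle lists had medians above 0 and no called member. Genes of the mitotic spindle and chromosome segregation had a median of 0.21, with all 51 members above 0, and DNA replication and repair genes had one of 0.25, with 59 of 61 above 0. The mean level of the mitotic list was 11.37, 11.07, 11.42, 11.40 and 11.70 in STING-MSC and 11.73, 11.01, 10.79, 11.38 and 10.98 in TLR3-MSC joints. STING-MSC replicate 5 and TLR3-MSC replicate 1 were the 2 highest and TLR3-MSC replicate 3 the lowest, so the groups overlapped, and the median was 0.07 without both replicates 5. Without single joints the mitotic median was 0.12 without TLR3-MSC replicate 3 to 0.36 without TLR3-MSC replicate 1, and that of replication 0.14 without TLR3-MSC replicate 3 to 0.41 without TLR3-MSC replicate 1. The erythroid list shared these joints, with mean levels of 13.99, 13.59, 13.84, 13.89 and 14.15 in STING-MSC and 14.36, 13.43, 13.36, 13.94 and 13.48 in TLR3-MSC joints, highest in TLR3-MSC replicate 1, lowest in TLR3-MSC replicate 3 and, within the STING-MSC group, highest in replicate 5. The part of marrow content in the cell cycle values was not tested. Spc24, a kinetochore protein (0.27), and Rfc4, a clamp loader subunit (0.32), had the smallest p of their lists (exact permutation p = 0.135 and 0.175). Cdkn1a, the p53 target and cell cycle inhibitor p21, did not overlap between the groups, with 1103, 1116, 1178, 1116 and 778 after STING-MSC and 1246, 1838, 1975, 1349.5 and 3599 after TLR3-MSC (-0.82, standard error 0.36, exact permutation p = 0.00794). It was the only called member of 27 genes of CDK inhibition, p53 and senescence (0.03), and its call was lost without STING-MSC replicate 5 and without TLR3-MSC replicates 2, 3 or 5.

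Clock, metabolic and stress lists had medians near that of all genes. Npas2, a partner of the clock protein BMAL1, was the only called member of 22 clock genes (0.01), with 74.7, 83.2, 89.7, 76.2 and 58.5 after STING-MSC and 77.5, 225, 228, 126 and 358 after TLR3-MSC (-1.23, exact permutation p = 0.0238). TLR3-MSC replicate 1 lay inside the STING-MSC range and the other 4 above it, and its call was lost without STING-MSC replicates 1 or 5 or TLR3-MSC replicates 2, 3 or 5. Hypoxia and glycolysis (0.05, 31 genes), the respiratory chain (0.06, 36 genes) and heat shock and chaperone genes (0.07, 28 genes) had no called member in limma. The respiratory chain and skeletal muscle lists shared their extreme joints by number of genes, since STING-MSC replicate 2 was the highest of the 10 joints in 30 of 36 respiratory and 22 of 35 muscle genes and TLR3-MSC replicate 1 the lowest in 32 and 27. By mean level, the highest joint was STING-MSC replicate 2 for the respiratory chain (12.99) but TLR3-MSC replicate 3 for muscle (14.67). The part of muscle in the respiratory values was not tested. The first genes of the hypoxia, respiratory and heat shock lists by p were Pfkfb4, a regulator of glycolysis (0.16, exact permutation p = 0.0476), the ATP synthase subunit Atp5pb (0.11, exact permutation p = 0.389) and Ahsa1, a co-chaperone of HSP90 (0.14, exact permutation p = 0.0476).

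Against the other 2 groups of the study, the lower genes lay below control after STING-MSC and near control after TLR3-MSC. Over the 83 lower genes, the median log2 fold change was -1.49 for STING-MSC against control and 0.05 for TLR3-MSC against control, and -0.82 and 0.73 against MSC. Over the 9 higher genes it was 0.48 and -0.64 against control and 0.31 and -0.93 against MSC. These contrasts share their STING-MSC, TLR3-MSC, control and MSC joints with each other and with the comparison that chose the genes, so they are given as levels and not as further evidence. For Lum the values were -1.71 and -0.43 against control and -0.82 and 0.46 against MSC, and for Ctsk they were -0.78, 0.09, -0.32 and 0.54.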

How the data were processed

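RNA of 20 mouse knee joints (5 per group, 1 joint per mouse) was sequenced by the authors. The submitters' processing notes name STAR 2.7.3a, HTSeq, DESeq2 and the build GRCm39, and whether counting used strand was not given in the sources used here. The deposited signal values are gene read counts that the authors divided by a size factor for each joint (normalized counts). Dividing each value by that of 1 read gave whole reads, within 0.1 read, for 99.84% to 99.92% of the values.

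All 20 joints were fitted together in limma 3.58.1 (R 4.3.3) on log2(normalized count + 1), with the Benjamini-Hochberg FDR over 14793 genes. On this scale, fold changes of genes with few reads can be smaller or larger than those of a count model. The log2 fold change of Kcna1 was -1.20 in limma and -1.33 in edgeR, and that of Uts2b was 1.57 and 0.96. A minimum mean of 5 removed 0 genes. For single genes, the 252 splits of the 10 joints gave an exact permutation p, which is two-sided. Replicates are separate mice, and no pair of libraries agreed within sampling noise. edgeR 4.0.16 and DESeq2 1.42.0 on recovered reads, other scalings, pseudocounts and filters, array weights, a replicate block and leaving out joints were alternatives, and the limma step was tested on simulated data. Named were the 10 genes of smallest p past the threshold in each direction, per list the 2 of smallest p among called members or else the first, and the sensors. The text marks other genes as named later. The comparison, the gene lists (1117 of 1203 members measured) and this rule were chosen with earlier results of these data known. Some genes covered by this rule are not reported here.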

Additional observations from a re-analysis of the deposited data

Results flagged for a closer look

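In 20 of 228 tested sets of 5 joints, over named genes and list levels in each group, 1 joint stood apart, with a gap to its nearest neighbour above 0.71 of the range of its group. Chance alone flags about 5% of such sets, and sets that share a joint are not independent.

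STING-MSC replicate 5 was the lowest of its group at a normalized count of 0 for Syt17, 359 for Osmr, 2743 for Col22a1, 231 for Fkbp14, 3521 for Ccn2, 2020 for Lum, 294.5 for Has1 and 778 for Cdkn1a. It was also the lowest in mean log2(normalized count + 1) of collagen processing enzymes at 9.76, proteoglycans and hyaluronan at 9.45, synovial and joint fibroblast markers at 10.2 and Wnt genes at 7.34. It had 97 genes at 0, more than any other STING-MSC or TLR3-MSC joint, and the part of this in its low values was not tested.

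STING-MSC replicate 3 was the highest of its group in mean log2(normalized count + 1) of the cGAS-STING pathway at 9.90, of guanylate-binding and immunity-related GTPases at 9.48, of chemokine ligands at 8.35 and of fibrillar collagens at 12.8. Its Cxcl10 was at 619.

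STING-MSC replicate 2 was the highest of its group for Atp5pb at a normalized count of 15430 and for the endothelial list at 9.83. STING-MSC replicate 1 was the only one of its group with Krt5 above 0, at 2.62. TLR3-MSC replicate 3 was the lowest of its group for Fcrl5 at 4.02.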

How the results depend on the processing

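None of the 44 called named genes changed direction under any alternative run, while Ticam1, Sting1 and Irf7, not called and within 0.04 of 0, changed sign under some. Of the called genes, 13 stayed called without each joint in turn. The counts were less stable. Past the threshold, 9 genes were higher, but 3 with a pseudocount of 5, 2 with a minimum mean of 20, 26 with quantile normalization, 28 with array weights and 9 to 18 without single joints (18 without TLR3-MSC replicate 1 or 3). The 83 lower genes became 160 in a fit of the 2 groups alone, 223 in edgeR, 219 in DESeq2, 285 with array weights and 24 to 171 without single joints (24 without STING-MSC replicate 5, 34, 55, 126 and 171 without TLR3-MSC replicates 5, 2, 4 and 1). At the unadjusted p, 380 genes became 1258 in the fit of 2 groups, 605 in edgeR, 676 in DESeq2, 3383 with array weights and 144 to 758 without single joints (144, 236 and 758 without TLR3-MSC replicates 5, 2 and 1, and 167 without STING-MSC replicate 5). Chosen after seeing the data, leaving out both replicates 5 gave 5 higher, 21 lower and 92 genes at the unadjusted p, and leaving out TLR3-MSC replicates 3 and 4 gave 20 higher and 159 lower. At an FDR of 0.05, DESeq2 called 2 genes and each limma and edgeR setting 0. With TMM scaling, 17 genes instead of 34 had all STING-MSC joints above all TLR3-MSC joints. Without single joints these counts were 41 to 213 above and 177 to 489 below, and they can only grow with fewer joints. The cause of the other changes was not tested.

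Same-numbered joints are different mice, with correlations of their deviations from -0.315 to 0.262, so the numbers gave no pairing. With the replicate block, 10 genes were higher, 75 lower and 291 at the unadjusted p, and 6 of the called named genes lost their call. With 5 joints per group of which 1 stood apart, and 37 of the 83 lower genes at a mean count under 50, the depth and number of joints limited the precision of single genes.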
